A study of Mus musculus with 9 samples.

Results

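The integrin and laminin chains were taken as every gene symbol of the deposited footprint counts that begins with Itga followed by digits or letters, with Itgb and a digit, or with Lama, Lamb or Lamc and a digit. There were 37 such genes among 36410. They comprised 18 integrin alpha chains, 8 integrin beta chains, 5 laminin alpha chains, 3 laminin beta chains and 3 laminin gamma chains. Each had at least 1 count in some library, and 32 passed the filter on low counts and were tested among 12678 genes.

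Ribosome-protected fragments (RPFs) were counted in immortalized striatal cells from mouse embryos, with 3 libraries per line. Control cells (STHdhQ7/Q7) encode 7 glutamines in huntingtin from both Htt alleles. In HD-het cells (STHdhQ7/Q111) the knock-in of 111 glutamines is on 1 allele, and in HD-homo cells (STHdhQ111/Q111) it is on both. All cells had been given cycloheximide, which halts elongating ribosomes, for 10 min before lysis. Every genotype was 1 cell line, so genotype and line cannot be told apart, and p-values describe the spread among cultures of these lines. The libraries held 22504543 to 41888701 counts, and a count of 0 in a library allowed a level of up to 0.0714 to 0.142 CPM (counts scaled to a total of 1000000, with TMM factors that correct the totals for library composition). RPFs were not divided by mRNA, so a level is an abundance of footprints. In such bulk samples, fewer cells that make a transcript and less of it per cell cannot be told apart.

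Integrins are cell surface receptors made of 1 alpha and 1 beta chain. They bind matrix proteins such as fibronectin, collagen and laminin, or partner proteins on other cells, and link them through adaptors to actin. Laminins are secreted trimers of an alpha, a beta and a gamma chain that build the basement membrane, the thin matrix sheet under epithelia and around vessels, muscle and nerve. In the brain both families serve the adhesion and migration of neural precursors and the vessel wall.

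The HD-het cells held the most footprints of most integrin and laminin chains, and the HD-homo cells the fewest. By mean CPM HD-het was the highest line for 26 of 32 tested members, against 38.6% of all genes tested. HD-homo was the lowest line for 22 of 32, against 33.6% of all genes. In HD-het against control, 25 members were higher and 1 was lower at an adjusted p under 0.05 (edgeR quasi-likelihood F test, Benjamini-Hochberg over all genes tested), where 31.0% of all genes were higher and 29.1% lower. The median log2 fold change of the members was 1.62, against 0.02 for all genes. Itga8, Itga9, Lama1 and Lama3 passed the filter on low counts through HD-het only. Being highest there was thus partly a condition of testing these genes. With at least 10 counts required in every library, 15 of 21 members tested were higher in HD-het against control. Under that filter 3355 of 11071 genes were higher. In HD-homo against control, 7 members were higher and 13 lower, where 23.3% of all genes were higher and 22.3% lower, and the members' median was -0.57. In HD-homo against HD-het, 3 members were higher and 26 lower, where 34.6% of all genes were higher and 32.8% lower, and the median was -2.31. A difference of some kind among the 3 lines was found for 30 members, where 78.4% of all genes had one. The exceptions were Itga6 and Lamc3. Since HD-het and HD-homo were set against the same control libraries, their calls are given side by side and not as independent results.

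The size of the differences also set the members beside the rest of the genes. The median absolute log2 fold change was 1.62 in HD-het against control, compared with 0.46 over all genes, and 1.17 in HD-homo against control, compared with 0.32. At least a 2-fold rise was called for 22 members in HD-het against control and at least a 2-fold fall for 1. Over all genes these shares were 13.9% and 6.91%. In HD-homo against control the counts were 7 and 9, where the shares of all genes were 8.94% and 8.27%. Of 21 integrin chains tested, 16 were higher and 1 was lower in HD-het, and of 11 laminin chains 9 were higher and none was lower. In HD-homo, 4 integrin chains were higher and 9 lower, and 3 laminin chains were higher and 4 lower.

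**Figure D1:**
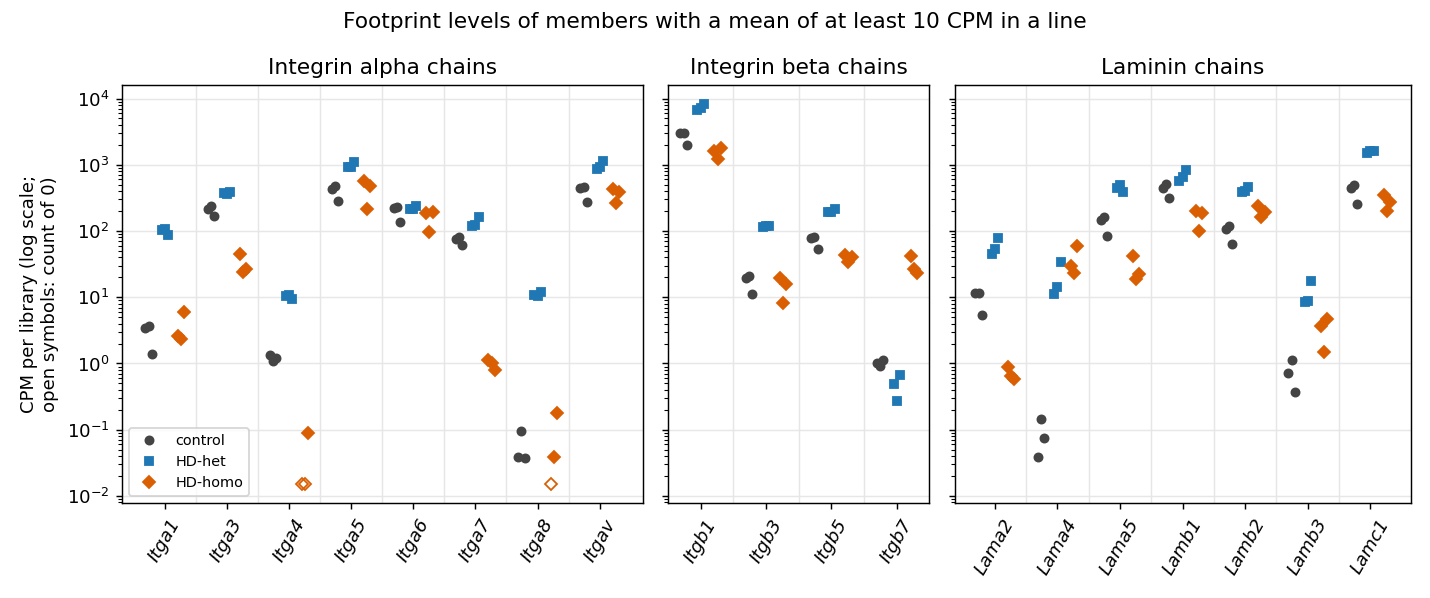
Footprint level in CPM (log axis) of each of 19 members with a mean of at least 10 CPM in some line, 1 symbol per library, with circles for control, squares for HD-het and diamonds for HD-homo, and open symbols for a count of 0. HD-het libraries lie above both other lines for most genes, whereas Itgb7 is highest in HD-homo and Lama4 is lowest in control.

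Within a line the libraries were not level for these genes. Of the 32 tested members, control replicate 3 was the lowest control library for 25, compared with 36.4% of all genes, and HD-homo replicate 2 was the lowest HD-homo library for 21, compared with 37.3%. The median deviation from the line's mean was -0.39 and -0.40 on the log2 scale in these libraries, while over all genes it was 0.00 in both. HD-het replicate 1 was the lowest HD-het library for 19 members, compared with 31.2% of all genes. Its median deviation was smaller, at -0.11 for the members and -0.01 over all genes. Without control replicate 3 and HD-homo replicate 2, the members called higher and lower in HD-het against control numbered 25 and 0. They numbered 7 and 13 in HD-homo against control, and 4 and 25 in HD-homo against HD-het. Of the 12776 genes then tested, those called higher and lower numbered 3831 and 3554, 2618 and 2519, and 4286 and 4159 in the same order.

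**Figure D2:**
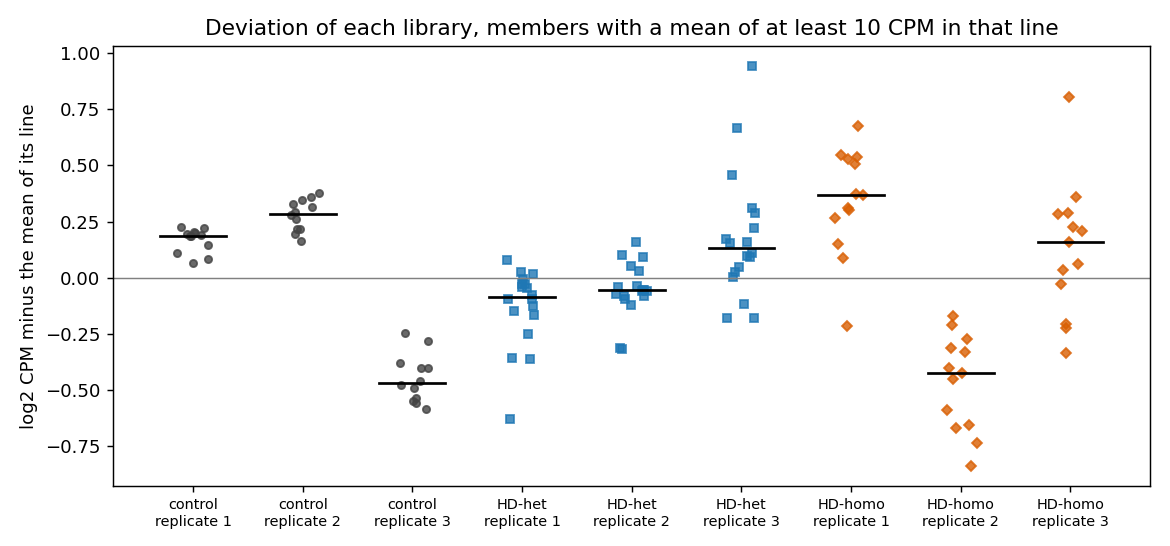
Log2 CPM of each library minus the mean of its line, for members with a mean of at least 10 CPM in that line, with a bar at the median. Control replicate 3 has a median of -0.47 with 12 of 12 plotted members below the line's mean, and HD-homo replicate 2 a median of -0.42 with 13 of 13 below it.

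Markers of other cells were read alongside. The summed level of 7 mural and fibroblast genes (Pdgfrb, Cspg4, Acta2, Myh11, Col1a1, Col1a2 and Dcn, led by Col1a1) lay between 6255 and 8776 CPM in control, 24768 and 26371 CPM in HD-het and 5389 and 6859 CPM in HD-homo. HD-het was the highest line by this sum, which was carried by Col1a1 and Acta2, and control and HD-homo overlapped. All 7 exceeded 3 counts in each line and were called higher in HD-het against control, with a median log2 fold change of 1.89. Set against control, HD-homo had 2 of the 7 higher and 2 lower, and the median was 0.29. Col1a2, at means of 24.0, 88.9 and 1027 CPM in control, HD-het and HD-homo, and Dcn were highest in HD-homo. The part of these cell markers in the result was not tested. Striatal precursor markers, led by Nes, summed to 415 to 564 CPM, 1125 to 1255 CPM and 52.8 to 71.3 CPM in the same order, with Gsx2 at 0 throughout. Of 6 precursor markers tested, 2 were higher and 3 lower in each mutant line against control. Dlx2 ran opposite to the sum, at means of 9.25, 2.11 and 19.9 CPM, and Dlx1 did so at a low level. The part of the precursor markers was not tested either. Striatal neuron markers summed to at most 18.7 CPM, with Drd1 and Drd2 at 0. Of 3 neuron markers tested, 1 was higher and 1 lower in HD-het against control, and 1 was higher in HD-homo. Leukocyte markers summed to at most 9.22 CPM, mostly Cd68, with Cd3e, Cx3cr1 and Tyrobp at 0, and platelet markers to at most 0.0382 CPM, with Gp1bb, Gp9 and Gp6 at 0. Of 2 leukocyte markers tested, Cd68 was called higher in HD-het against control (log2 1.09 ± 0.32 SE). The other, Csf1r, was called higher in HD-homo (log2 1.62 ± 0.33 SE), at a mean of 1.06 CPM. The 5 endothelial markers summed to between 0.602 and 0.952 CPM for control, with sums of 1.86 to 2.32 CPM for HD-het and 0.382 to 1.06 CPM for HD-homo, and with Cldn5 at 0. Their 1 tested gene, Kdr, was called higher in HD-het (log2 1.99) and was highest there, as most members were. The 6 epithelial markers, led by Krt8, summed to 16.9 to 17.9 CPM, 11.5 to 17.2 CPM and 7.32 to 10.5 CPM across the same lines. Of 5 tested, 1 was higher and 3 lower in HD-het, and 1 was higher and 2 lower in HD-homo. The part of the neuron, leukocyte, endothelial and epithelial markers was not tested.

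Itgb1, the beta chain that most alpha chains pair with (chr8:128685654-128733579 in GRCm38.p6, as are all gene positions here), carried nearly all beta-chain footprints. Its level was 2996, 3061 and 1992 CPM in the control libraries, 6802, 7233 and 8291 CPM in HD-het and 1635, 1236 and 1794 CPM in HD-homo. The 3 lines did not overlap, with HD-het highest and HD-homo lowest. Itgb1 rose 2.77-fold in HD-het against control (log2 1.47 ± 0.18 SE, n = 3 libraries per line, edgeR adjusted p = 3.36e-05) and fell by 0.79 ± 0.17 SE on the log2 scale in HD-homo (edgeR adjusted p = 0.0034). Per kilobase of coding sequence, Itgb1 made up 96.5% ± 0.035 (SD, n = 3) of the summed level of the 8 beta chains in control, with 95.7% ± 0.24 in HD-het and 94.6% ± 0.90 in HD-homo. The sum itself was 1161 ± 259 CPM per kb in control, with 3247 ± 326 in HD-het and 686 ± 125 in HD-homo (SD, n = 3).

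Itga5 and Itgav, the alpha chains of receptors for fibronectin, vitronectin and related ligands with an RGD motif, were the leading alpha chains in each line. Itga5 stood at 432, 485 and 284 CPM in control, 914, 922 and 1098 CPM in HD-het and 564, 216 and 472 CPM in HD-homo. Itgav stood at 439, 465 and 276 CPM in control, 870, 919 and 1125 CPM in HD-het and 424, 263 and 395 CPM in HD-homo. For both, all HD-het libraries lay above the others, while control and HD-homo overlapped. The log2 fold change in HD-het against control was 1.29 ± 0.29 (SE) for Itga5 and 1.30 ± 0.21 for Itgav, with edgeR adjusted p = 0.00283 and 3.02e-04. In HD-homo against control it was 0.06 ± 0.29 and -0.12 ± 0.21, which did not pass the test.

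Itga8, which pairs with Itgb1 and binds nephronectin, exceeded a few counts in HD-het only. It had 1, 4 and 1 counts in the control libraries and 0, 1 and 4 in HD-homo, compared with 287, 381 and 253 in HD-het, where it reached 10.9, 10.5 and 12.0 CPM. Its level in HD-het was 174-fold that in control (95% interval of 79.4 to 474, exact, counting error only) and 186-fold that in HD-homo (79.4 to 574). The difference from control had an edgeR adjusted p = 8.28e-08.

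The beta chains that pair with Itgav moved in several ways. Itgb3, also the partner of the platelet chain Itga2b, was measured at 19.4, 20.9 and 11.4 CPM in control, 116, 121 and 119 CPM in HD-het and 19.9, 8.26 and 15.9 CPM in HD-homo. It rose 6.86-fold in HD-het (log2 2.78 ± 0.28 SE, edgeR adjusted p = 1.01e-05), and control and HD-homo overlapped. Itgb5, the vitronectin receptor chain, was at 79.6, 79.9 and 53.7 CPM, then 194, 192 and 213 CPM, then 43.0, 33.5 and 40.5 CPM in control, HD-het and HD-homo. No libraries of different lines overlapped. Itgb5 rose by 1.49 ± 0.15 SE in HD-het and fell by 0.87 ± 0.15 SE in HD-homo on the log2 scale (edgeR adjusted p = 8.90e-06 and 6.28e-04). Itgb6 and Itgb8, which act with Itgav to release active TGF-beta, were scarcer. Itgb6 had a mean of 3.44 ± 1.07 CPM (SD) in control, with 7.80 ± 1.99 in HD-het and 3.32 ± 1.21 in HD-homo, and only the rise in HD-het was called. Itgb8 was at 2.38 ± 0.482, 5.71 ± 1.10 and 0.190 ± 0.0825 CPM in the same order, higher in HD-het and 11.8-fold lower in HD-homo than in control.

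Itga3, Itga6 and Itga7, the laminin-binding alpha chains, separated from each other in HD-homo. Itga3 was measured at 214, 238 and 168 CPM in control, 375, 366 and 389 CPM in HD-het and 44.4, 24.3 and 26.6 CPM in HD-homo. Itga6 was measured at 224, 230 and 136 CPM in control, 213, 212 and 236 CPM in HD-het and 189, 95.9 and 196 CPM in HD-homo. Itga7, the main laminin receptor chain of muscle (chr10:128933421-128958286), was at 76.2, 80.7 and 60.7 CPM in control, 120, 124 and 165 CPM in HD-het and 1.14, 1.03 and 0.798 CPM in HD-homo. The lines did not overlap for Itga3 and Itga7, but control overlapped both other lines for Itga6. In HD-homo against control Itga3 was 6.49-fold lower (log2 -2.70 ± 0.21 SE, edgeR adjusted p = 1.31e-06) and Itga7 was 71.6-fold lower (log2 -6.16 ± 0.20 SE, edgeR adjusted p = 1.78e-09). Both were higher in HD-het than in control, by 1.82-fold and 1.88-fold. For Itga6 the log2 fold change was 0.17 ± 0.25 SE in HD-het and -0.29 ± 0.25 SE in HD-homo against control, and neither passed the test. Itgb4, the hemidesmosome chain that pairs with Itga6, was at 1.53 ± 0.164 CPM in control, with 1.19 ± 0.245 in HD-het and 0.133 ± 0.0553 in HD-homo, 10.6-fold lower in HD-homo than in control. Its gene overlaps that of Galk1, and strand use in the counting was not given.

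Itga1, Itga2, Itga10 and Itga11 bind collagens. Itga1 (chr13:114958079-115101964) was at 3.40, 3.73 and 1.39 CPM in control, 105, 107 and 88.1 CPM in HD-het and 2.64, 2.37 and 6.03 CPM in HD-homo. Control and HD-homo overlapped, and HD-het was 34.4-fold above control (log2 5.11 ± 0.35 SE, edgeR adjusted p = 7.42e-07). The Itga1 gene contains Pelo, which holds 6402 counts in all under its own name, so some fragments may be shared. Itga2, which is also the collagen receptor chain of platelets and epithelia, had 1 count in each control library, a mean of 1.42 ± 0.831 CPM in HD-het and a mean of 6.36 ± 4.25 CPM in HD-homo. The ratio to control was 41.8 (95% interval of 13.9 to 206, counting error only) in HD-het and 206 (70.0 to 1000) in HD-homo. The HD-homo libraries were uneven, at 8.62, 1.45 and 9.00 CPM. Itga10 and Itga11, known from cartilage and fibroblasts, stayed under 5 CPM in each library. Itga11 was called higher in both lines (log2 2.48 ± 0.35 SE and 1.51 ± 0.37 SE), and Itga10 was called higher in HD-het (log2 1.76 ± 0.38 SE) and lower in HD-homo (log2 -1.48 ± 0.52 SE, edgeR adjusted p = 0.0357). The last call was lost when control replicate 1 or 2 or HD-homo replicate 1 or 3 was left out.

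Itga4 and Itga9 pair with Itgb1 and bind fibronectin and VCAM1, or tenascin-C, and Itga4 also pairs with Itgb7, a lymphocyte chain that recognizes MAdCAM1. Itga4 was measured at 1.34, 1.09 and 1.20 CPM in control and 10.3, 10.8 and 9.32 CPM in HD-het, while HD-homo had 0, 0 and 2 counts. It rose 8.41-fold in HD-het against control (log2 3.07 ± 0.21 SE, edgeR adjusted p = 7.62e-07). Control exceeded HD-homo 50.4-fold (95% interval of 13.6 to 422, counting error only; edgeR adjusted p = 6.41e-06). Itga9 was at 1.13 ± 0.176 CPM in HD-het, with 6 counts in all in control and 2 in HD-homo. Itgb7 (chr15:102215994-102233405) ran the other way. It was at 1.03, 0.928 and 1.13 CPM in control, 0.493, 0.275 and 0.662 CPM in HD-het and 42.0, 26.3 and 23.4 CPM in HD-homo. Itgb7 rose 30.0-fold in HD-homo (log2 4.91 ± 0.27 SE, edgeR adjusted p = 7.96e-08), in the line where its partner Itga4 had 2 counts and its other partner, Itgae, had 3. It was the single member called lower in HD-het (log2 -1.18 ± 0.40 SE, edgeR adjusted p = 0.0254), a call lost without control replicate 3 (edgeR adjusted p = 0.0573) or HD-het replicate 2 (0.121).

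The chains known from leukocytes and platelets were read next. Itgad, Itgae, Itgal, Itgam and Itgax, which mark leukocytes, had at most 9 counts in any library and were the 5 members not tested. Itgb2, the beta chain that pairs with 4 of them, was at 2.04 ± 0.247 CPM in control, with 2.11 ± 0.554 in HD-het and 1.07 ± 0.617 in HD-homo. Its fall in HD-homo (log2 -0.97 ± 0.34 SE, edgeR adjusted p = 0.0363) was lost when control replicate 1 or 2 or HD-homo replicate 1 or 2 was left out, with edgeR adjusted p from 0.0870 to 0.116. Itga2b, the platelet fibrinogen receptor chain, was at 1.06 ± 0.219, 1.23 ± 0.318 and 6.14 ± 1.56 CPM in control, HD-het and HD-homo. It rose 5.81-fold in HD-homo (log2 2.54 ± 0.25 SE, edgeR adjusted p = 9.30e-06), and the HD-homo libraries did not overlap those of the other lines.

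Set side by side per kilobase, the alpha chains summed to 400 ± 96.0 CPM per kb (SD, n = 3) in control, with 882 ± 87.9 in HD-het and 312 ± 105 in HD-homo. Itga5 and Itgav held 31.6% and 31.3% of this sum in control, 35.1% each in HD-het, and 41.2% and 38.0% in HD-homo. Itga3 held 16.4% ± 1.47, 13.4% ± 0.94 and 3.28% ± 0.81 in the same order, and Itga6 14.9%, 7.66% and 15.7%. The beta chains exceeded the alpha chains 2.91-fold ± 0.091 in control, 3.68-fold ± 0.074 in HD-het and 2.31-fold ± 0.484 in HD-homo.

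**Figure D3:**
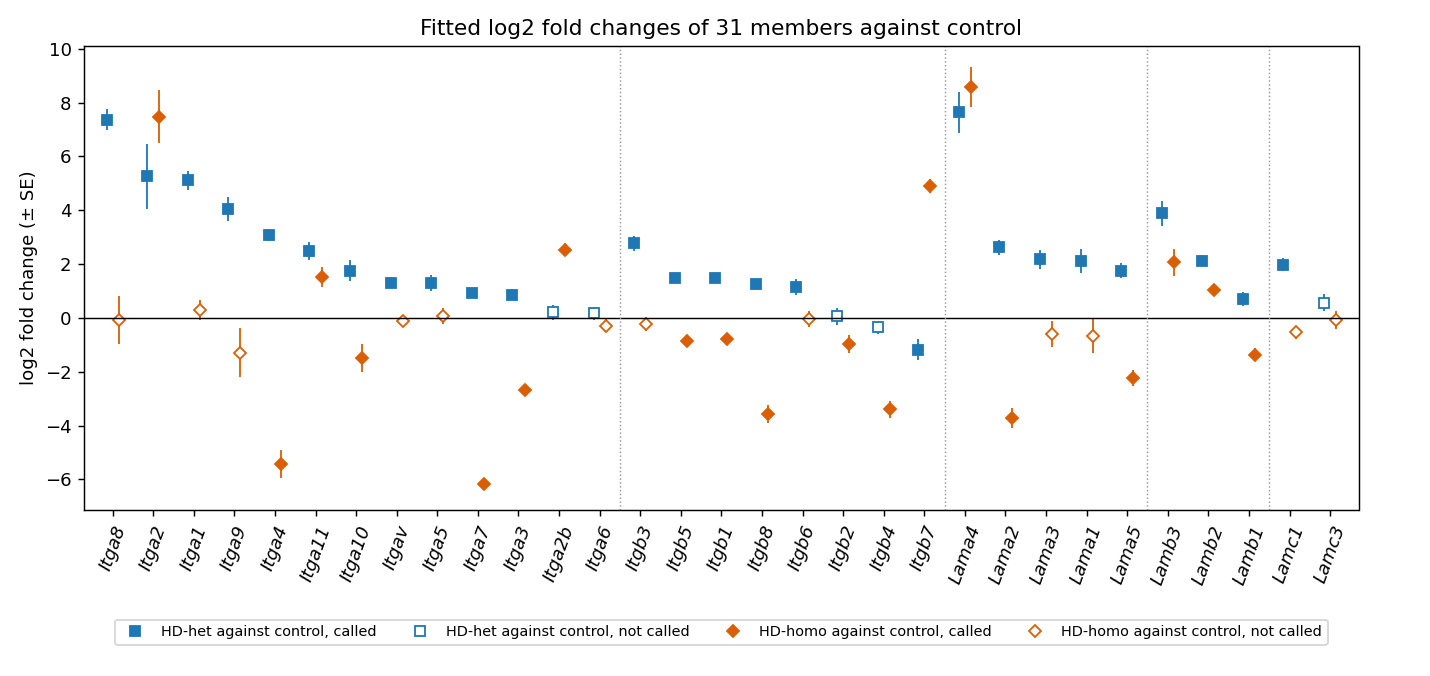
Fitted log2 fold change against control with its SE for 31 of the tested members, squares for HD-het and diamonds for HD-homo, filled where the edgeR test was passed. The alpha chains come first, then the beta chains and the laminin chains, and 10 members are called higher in HD-het and lower in HD-homo.

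Among the laminin alpha chains the leading chain differed between lines. Lama5, the widespread laminin alpha chain of mature basement membranes (chr2:180176373-180225904), was at 144, 161 and 85.4 CPM in control, 444, 489 and 387 CPM in HD-het and 41.7, 19.1 and 22.4 CPM in HD-homo. Lama4, the chain of vascular and mesenchymal laminin (chr10:38965515-39110188), had 1, 6 and 2 counts in control, and was at 11.4, 14.1 and 33.8 CPM in HD-het and 29.8, 23.0 and 60.4 CPM in HD-homo. Lama2, the chain of muscle and Schwann cell laminin (chr10:26981285-27617191), was at 11.6, 11.7 and 5.34 CPM in control, 45.0, 54.2 and 79.3 CPM in HD-het and 0.890, 0.650 and 0.577 CPM in HD-homo. The lines did not overlap for Lama5 and Lama2, and for Lama4 both mutant lines lay above control and overlapped each other.

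Lama5 rose 3.37-fold in HD-het (log2 1.75 ± 0.28 SE, edgeR adjusted p = 2.75e-04) and was 4.68-fold lower in HD-homo than in control (log2 -2.23 ± 0.29 SE, edgeR adjusted p = 8.41e-05). Lama2 rose 6.17-fold in HD-het and was 13.2-fold lower in HD-homo than in control (edgeR adjusted p = 1.45e-05 and 1.35e-05). Lama4 exceeded control 192-fold in HD-het (95% interval of 101 to 421, counting error only) and 378-fold in HD-homo (199 to 827). Its difference between HD-homo and HD-het did not pass the test (log2 0.94 ± 0.40 SE, edgeR adjusted p = 0.0579), and did pass it without HD-het replicate 3 (log2 1.56 ± 0.35 SE, edgeR adjusted p = 0.00299) or HD-homo replicate 2 (1.20 ± 0.40, 0.0209). Per kilobase, Lama5 held 91.7% ± 0.92 (SD, n = 3) of the laminin alpha level in control, with 79.5% ± 8.22 in HD-het and 27.9% ± 12.4 in HD-homo, where Lama4 held 70.9% ± 12.7. The summed alpha level was 12.8 ± 3.98, 49.6 ± 2.83 and 9.51 ± 3.58 CPM per kb. Lama1, the early embryonic chain, and Lama3, the chain of epithelial laminin, stayed under 2 CPM in each library and were called higher in HD-het only, by 2.11 ± 0.43 SE and 2.18 ± 0.36 SE on the log2 scale.

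**Figure D4:**
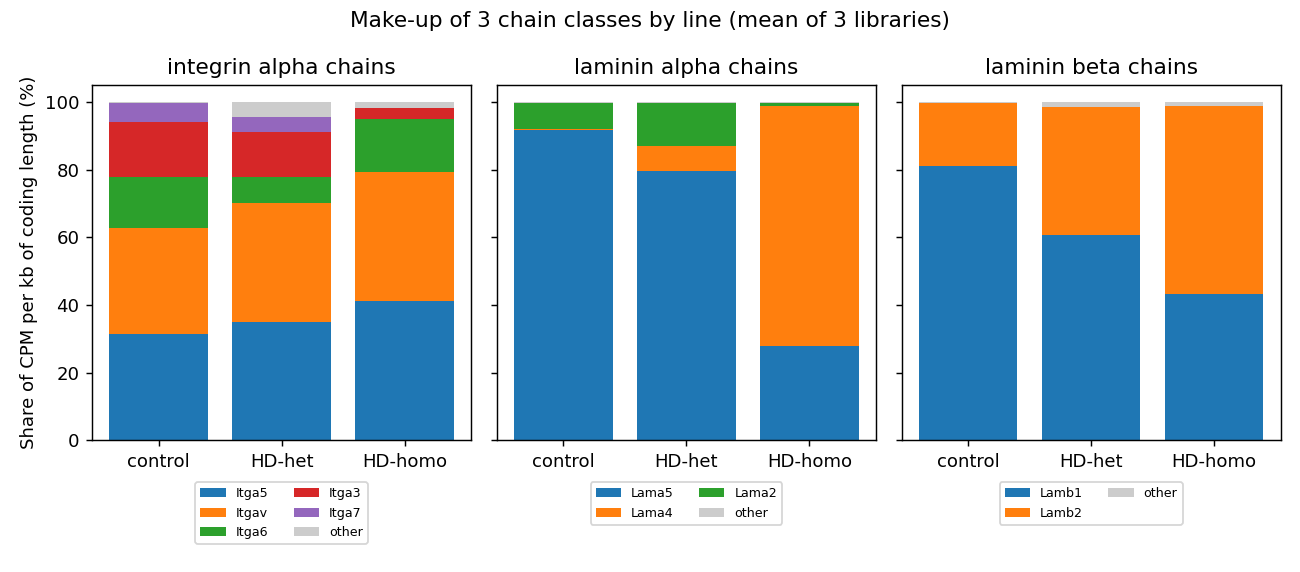
Share of each chain in the summed CPM per kb of coding length of its class, as the mean of 3 libraries per line. Lama5 makes up 91.7% of the laminin alpha bar in control and 27.9% in HD-homo, and Lamb1 81.1% of the laminin beta bar in control and 43.4% in HD-homo.

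The laminin beta chains shifted in the same libraries. Lamb1, the broadly expressed chain, was at 446, 506 and 313 CPM in control, 573, 655 and 845 CPM in HD-het and 202, 99.2 and 190 CPM in HD-homo. Lamb2, the chain of synaptic and glomerular laminin, was at 106, 119 and 64.4 CPM in control, 392, 401 and 465 CPM in HD-het and 241, 162 and 192 CPM in HD-homo. No libraries of different lines overlapped for either chain, but HD-homo lay below control for Lamb1 and above it for Lamb2. Lamb2 rose in HD-het (log2 2.12 ± 0.21 SE, edgeR adjusted p = 8.72e-06) and in HD-homo (log2 1.04 ± 0.20 SE, edgeR adjusted p = 0.00158). Lamb1 was lower in HD-homo (log2 -1.36 ± 0.26 SE, edgeR adjusted p = 0.00125). Its rise in HD-het (log2 0.71 ± 0.25 SE, edgeR adjusted p = 0.0303) was lost without control replicate 1 or 3 or HD-het replicate 2 or 3. Per kilobase, the ratio of Lamb2 to Lamb1 was 0.231 ± 0.018 (SD, n = 3) in control, with 0.628 ± 0.068 in HD-het and 1.30 ± 0.326 in HD-homo, with no overlap. Lamb3, the epithelial chain, was at 0.726, 1.12 and 0.376 CPM in control, 8.58, 8.86 and 17.4 CPM in HD-het and 3.73, 1.49 and 4.61 CPM in HD-homo, and was called higher in both lines against control (log2 3.88 ± 0.46 SE and 2.06 ± 0.49 SE).

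Lamc1, the gamma chain of most laminins, was at 441, 498 and 256 CPM in control, 1492, 1628 and 1597 CPM in HD-het and 345, 202 and 273 CPM in HD-homo. It rose 3.95-fold in HD-het (log2 1.98 ± 0.24 SE, edgeR adjusted p = 3.14e-05). Control and HD-homo overlapped through control replicate 3, and their difference did not pass the test (log2 -0.54 ± 0.23 SE, edgeR adjusted p = 0.0731), although it did without control replicate 3 (log2 -0.78 ± 0.17 SE, edgeR adjusted p = 0.00479) or HD-homo replicate 1 (-0.74 ± 0.24, 0.0287). Lamc3 stayed under 2 CPM in each library and was not called in any comparison, but without HD-homo replicate 3 it was called lower in HD-homo against HD-het (log2 -1.07 ± 0.28 SE, edgeR adjusted p = 0.00731). The gamma chains summed to 89.1 ± 26.4, 332 ± 14.7 and 60.6 ± 14.1 CPM per kb, and the ratio of alpha to gamma chains was 0.143 ± 0.0028, 0.149 ± 0.0029 and 0.157 ± 0.052 (SD, n = 3) in control, HD-het and HD-homo. That of beta to gamma chains was 1.08 ± 0.075, 0.621 ± 0.091 and 1.11 ± 0.071.

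The calls against control fell into a few patterns. Higher in HD-het and lower in HD-homo were 10 members, namely Itga3, Itga4, Itga7, Itga10, Itgb1, Itgb5, Itgb8, Lama2, Lama5 and Lamb1. A further 10 were higher in HD-het and not called in HD-homo, namely Itga1, Itga5, Itga8, Itga9, Itgav, Itgb3, Itgb6, Lama1, Lama3 and Lamc1. Higher in both were Itga2, Itga11, Lama4, Lamb2 and Lamb3. Itgb2 and Itgb4 were lower in HD-homo and not called in HD-het. Itga2b was higher in HD-homo and not called in HD-het, and Itgb7 was lower in HD-het and higher in HD-homo.

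The sequence before the gene start is shown for members that reached a mean of 20 CPM in a line and differed at least 16-fold between lines. Itga1, Itga7, Itgb7, Lama2 and Lama4 met this rule, and RefSeq promoter sequence was at hand for Itga1, Itgb7 and Lama2. Each run holds the 250 bases before a RefSeq start in GRCm38.p6, 5' to 3' on the minus strand, with CG dinucleotides in capitals. The windows are chr13:115101965-115102214 for Itga1, chr15:102231936-102232185 for Itgb7 and chr10:27616943-27617192 for Lama2, and the starts used for Itgb7 and Lama2 lie inside the annotated gene.
Itga1: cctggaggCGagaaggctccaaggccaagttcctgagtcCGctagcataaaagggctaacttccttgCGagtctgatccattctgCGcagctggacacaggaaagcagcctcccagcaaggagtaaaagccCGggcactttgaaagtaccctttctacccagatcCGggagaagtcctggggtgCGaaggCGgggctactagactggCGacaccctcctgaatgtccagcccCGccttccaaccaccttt
Itgb7: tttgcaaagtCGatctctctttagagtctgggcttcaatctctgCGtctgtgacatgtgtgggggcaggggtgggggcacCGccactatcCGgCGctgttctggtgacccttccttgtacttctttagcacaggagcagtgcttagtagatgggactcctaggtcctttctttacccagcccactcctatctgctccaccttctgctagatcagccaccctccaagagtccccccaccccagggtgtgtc
Lama2: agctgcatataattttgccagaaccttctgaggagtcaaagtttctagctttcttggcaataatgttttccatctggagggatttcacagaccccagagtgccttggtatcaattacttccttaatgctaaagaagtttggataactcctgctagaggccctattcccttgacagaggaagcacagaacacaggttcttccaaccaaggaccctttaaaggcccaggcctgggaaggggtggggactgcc
These genes, highest in HD-het, HD-homo and HD-het in turn, had 10, 5 and 0 CG dinucleotides in the window, and a GC content of 57.6%, 56.0% and 47.2%. At least 1 CG was present in 92.1% of 32851 RefSeq promoter windows of this length, with a median of 6. The letters TGACTCA (an AP-1 motif, in 4.46% of all windows), CACGTG (an E-box, 6.02%), GGGCGG (a GC box, 32.7%), TATAAA (12.4%) and TGACGTCA (1.55%) were searched on both strands and were found in none of the 3 windows.

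The wider integrin pathway was read from 3 gene lists, whose counts stand beside shares over all genes of 31.0% higher and 29.1% lower in HD-het and 23.3% higher and 22.3% lower in HD-homo against control. Of 32 adaptor genes tested, which link integrins to actin and signaling, 17 (53.1%) were higher and 7 (21.9%) lower in HD-het against control, with a median log2 fold change of 0.36. In HD-homo against control 2 (6.25%) were higher and 10 (31.2%) lower, and the median was -0.14. Among adaptors with at least 10 CPM in the higher line, Tns1, a tensin that binds beta-chain tails, showed the largest called rise in both. It went from 15.5 ± 0.818 CPM (SD) in control to 41.1 ± 8.33 in HD-het and 33.1 ± 1.99 in HD-homo. Lims2, at a lower level, rose more in HD-het, from 0.670 ± 0.159 to 7.37 ± 0.902 CPM (log2 3.46 ± 0.26 SE, edgeR adjusted p = 1.27e-06). Parvb, a parvin that joins integrin-linked kinase to actin, showed the largest called fall in HD-het, from 77.6 ± 4.80 to 4.97 ± 0.527 CPM (log2 -3.96 ± 0.26 SE, edgeR adjusted p = 4.88e-07). Tln2, a talin that activates integrins, showed the largest called fall in HD-homo, from 72.5 ± 5.16 to 14.4 ± 0.991 CPM (log2 -2.34 ± 0.09 SE, edgeR adjusted p = 4.11e-09).

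Of 14 integrin ligands tested, 12 (85.7%) were higher and 1 (7.14%) was lower in HD-het against control, with a median of 1.30. In HD-homo 4 (28.6%) were higher and 5 (35.7%) lower, and the median was -0.29. Postn, a matrix protein of fibroblasts, showed the largest called rise in HD-het, from 5.78 ± 2.54 to 52.2 ± 37.2 CPM with a wide spread among libraries. Vcam1, the ligand of Itga4, was the largest called fall in both comparisons, from 140 ± 35.1 CPM in control to 57.1 ± 5.46 in HD-het and 11.1 ± 1.39 in HD-homo. Svep1, which binds Itga9, showed the largest called rise in HD-homo, from 3.66 ± 1.26 to 38.7 ± 9.77 CPM (log2 3.38 ± 0.42 SE, edgeR adjusted p = 5.88e-05), while Itga9 itself had 2 counts in that line.

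Of 19 laminin partners tested, which comprise nidogens, basement membrane collagens, heparan sulfate proteoglycans, netrin 4 and laminin receptors other than integrins, 13 (68.4%) were higher and 2 (10.5%) lower in HD-het against control, with a median of 1.28. In HD-homo 4 (21.1%) were higher and 12 (63.2%) lower, and the median was -0.98. Nid2, a nidogen that ties laminin to collagen IV, showed the largest called rise in both lines, from 4.66 ± 0.926 CPM to 268 ± 73.6 in HD-het (log2 5.83 ± 0.24 SE, edgeR adjusted p = 1.97e-08) and 36.8 ± 6.47 in HD-homo (log2 2.97 ± 0.22 SE, edgeR adjusted p = 9.67e-07). Col18a1 was the largest called fall in HD-het, from 307 ± 62.7 to 114 ± 20.1 CPM. In HD-homo it was Col4a6 among partners with at least 10 CPM in the higher line, from 16.6 ± 3.55 to 1.58 ± 0.348 CPM. At lower levels, Ntn4 and Col4a3 fell more in HD-homo (log2 -3.87 for each), as did Col4a4, with 1, 0 and 0 counts there. In HD-homo against HD-het, 9 adaptors were higher and 19 lower, 2 ligands were higher and 11 lower, and 2 laminin partners were higher and 17 lower, where 34.6% of all genes were higher and 32.8% lower.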

How the data were processed

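The deposited table holds unnormalized counts of ribosome-protected fragments for each gene symbol, with a column for every library, none of them pooled by the authors. The names of its 9 columns gave the samples. Per the labels, the 80S monosome fraction of cells given cycloheximide for 10 min was depleted of ribosomal RNA, and fragments of 26 to 32 nt were kept. The submitters' processing notes name cutadapt, Bowtie 1.0.1 and mm10. How fragments were assigned to genes, with which annotation and with or without strand, was not given in the sources used here, and matched mRNA was not used here.

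Whole-table fits of all 9 libraries were made in R 4.3.3 with edgeR 4.0.16 and limma 3.58.1. They used TMM factors, the filterByExpr filter by line, line means as the only terms and glmQLFTest. Benjamini-Hochberg adjustment was over 12678 genes, and genes with an adjusted p under 0.05 are called. The SE is the log2 fold change divided by the square root of F. Where a line held 10 counts or fewer in all, the ratio carries an exact conditional 95% interval, which covers counting error only, since amplified fragments are not independent molecules. Levels per kilobase used the longest coding sequence of each gene in GENCODE M21 (a table of RefSeq proteins had been planned). The scripts were tested on simulated data.

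Values in every library are given for members with a mean of at least 10 CPM in a line. The values of 1 member, which is in the counts of members, are not reported here. From each pathway list, the genes named are the called gene with the largest rise and with the largest fall against control, among genes with at least 10 CPM in the higher line. Genes below that level with a larger called change are named beside them. Members and lists were chosen with earlier results of these data known. Alternatives were RLE size factors, total counts, DESeq2 1.42.0, a table without a filter, a table of genes with at least 10 counts in each library, the 6 libraries compared, a replicate block and leaving out each library. Leaving out control replicate 3 and HD-homo replicate 2 together was chosen after seeing the data.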

Additional observations from a re-analysis of the deposited data

Results flagged for a closer look

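For 11 of 32 tested members (34.4%) the change against control was called in opposite directions in HD-het and HD-homo, and the direct edgeR test of HD-homo against HD-het was passed. The same held for 11.9% of all genes tested. For 10 of the members (31.2%) HD-homo was below HD-het, against 6.79% of all genes. The log2 fold change of HD-homo against HD-het was -2.26 for Itgb1, -2.36 for Itgb5, -4.81 for Itgb8, -3.56 for Itga3, -8.50 for Itga4, -7.07 for Itga7 and -3.24 for Itga10 among the integrin chains. It was -6.34 for Lama2, -3.98 for Lama5 and -2.08 for Lamb1 among the laminin chains. Itgb7 was above HD-het in HD-homo, at 6.09. Both comparisons with control use the same control libraries, and each genotype is 1 line. Leaving out single libraries ended the call against control of Itga10 in HD-homo, and of Lamb1 and Itgb7 in HD-het.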

How the results depend on the processing

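With at least 10 counts required in every library, 21 members were tested. Of these, 15 were higher in HD-het, 4 were higher in HD-homo, 17 were lower in HD-homo than in HD-het and 19 differed among the lines. Of the 11071 genes tested under this filter, 3355 were higher in HD-het and 2371 were higher in HD-homo. Lower in HD-homo than in HD-het were 3580 genes, and the share of all genes that differed among the lines was not at hand. Itgb7, the 1 member lower in HD-het, was not called without control replicate 3, without HD-het replicate 2, or with control replicate 3 and HD-homo replicate 2 both left out, which gave 0 members lower. Leaving out single libraries gave 0 to 1 members lower in HD-het, 2 to 5 adaptors higher in HD-homo, and 1 to 2 laminin partners higher in HD-homo against HD-het. All other counts of members stayed within 1.5 times under every setting run.

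Over all genes tested, the deviations of libraries with the same replicate number had correlations from -0.356 to 0.175. The labels do not say what the numbers mean. Pairs with different numbers were not compared, so these values cannot decide whether the numbers pair the libraries. With the replicate block, 24 members were higher and 1 was lower in HD-het, 7 were higher and 11 lower in HD-homo, and 1 laminin partner was called higher in HD-homo against HD-het. Of all 12678 genes, the block gave 3825 higher and 3638 lower in HD-het, and 2803 higher and 2703 lower in HD-homo. In HD-homo against HD-het it gave 4309 higher. Under the block Lamb1 in HD-het and Itga10 and Itgb2 in HD-homo lost their calls (edgeR adjusted p = 0.0601, 0.0678 and 0.0562), and Lama4 was called in HD-homo against HD-het (9.41e-04).

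Changes of sign arose only among members that were not called in that comparison, and only when libraries were left out. Without single libraries the log2 fold change in HD-het against control ran from -0.035 to 0.34 for Itga2b, -0.044 to 0.29 for Itga6 and -0.19 to 0.22 for Itgb2. In HD-homo against control it ran from -0.21 to 0.58 for Itga1, -0.22 to 0.37 for Itga5, -1.73 to 0.67 for Itga8, -0.33 to 0.060 for Itgav, -0.52 to 0.058 for Itgb3, -0.39 to 0.24 for Itgb6 and -0.52 to 0.21 for Lamc3. With both doubted libraries left out it was -0.044 for Itga6 and -0.024 for Itgb2 in HD-het, and 0.0030 for Itgb6 and 0.14 for Lamc3 in HD-homo. The cause was not tested. Lamc1 in HD-homo was also called by DESeq2 (adjusted p = 0.0480) and without a filter (edgeR adjusted p = 0.0432). Lama4 in HD-homo against HD-het was also called with total counts (edgeR adjusted p = 0.0241) and without a filter (0.0313). With only the 6 libraries compared, Itgb2 in HD-homo lost its call (edgeR adjusted p = 0.0518). Itga10 and Itgb2 in HD-homo, Itgb7 and Lamb1 in HD-het and members with few counts are the least certain calls.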
